A study of Rattus norvegicus with 9 samples.

Results

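The expression of 9 enzymes that break down amino acids was examined in rat liver: Tat, Hpd, Hgd and Fah of tyrosine breakdown, Hal of histidine, Tdo2 of tryptophan, Aass of lysine, Sds of serine and Agxt of glyoxylate metabolism. They were found by their gene symbols among the 14377 genes that the array annotation names by a probe set of their own, a probe set being the group of short oligonucleotides that reads a transcript. Each enzyme was read by 1 probe set, which matched no other gene and was called present, that is detected, on all 9 arrays. Liver RNA of 9 male Sprague–Dawley rats was hybridised to Affymetrix rat expression arrays, an array for every rat, and the 3 groups (vehicle, CCl4 and CCl4+Rot) had 3 rats each. CCl4 rats received carbon tetrachloride, a hepatotoxin that produces fibrosis, in olive oil by intraperitoneal injection 2 times a week for 8 weeks. CCl4+Rot rats also received rottlerin, an activator of the large-conductance calcium-activated potassium (BK) channel, at 2.5 mg/kg by intraperitoneal injection from 2 weeks after the first CCl4 injection. What the vehicle rats were injected with, the age of the rats and how often rottlerin was given are not stated in the sources used here, and no group received rottlerin without CCl4. The comparisons ask how far the transcripts of these enzymes differed after CCl4 and whether the livers given rottlerin as well differed from those given CCl4 alone.

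The liver is the main site where surplus amino acids are degraded, and most of the enzymes concerned are made by hepatocytes. Their carbon skeletons enter the citric acid cycle, glucose or ketone body synthesis, while the nitrogen goes to urea. Tat, Sds and Tdo2 are classical examples of liver enzymes whose transcription is raised by glucocorticoids or glucagon, and inherited loss of Fah, Hpd or Tat causes forms of tyrosinaemia, loss of Hgd alkaptonuria, loss of Hal histidinaemia, and loss of Agxt primary hyperoxaluria. In the array annotation 4 of the enzymes (Fah, Hgd, Hpd and Tat) carry the term L-phenylalanine catabolic process, 3 (Agxt, Sds and Tat) bind pyridoxal phosphate, and 3 (Hgd, Hpd and Tdo2) are dioxygenases.

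Signals are given on the log2 scale, on which a difference of 1 is a doubling, and are not compared between enzymes because probe sets differ in brightness. The deposited values had been scaled so that the trimmed mean of each array was 500 on the linear scale. Array 3 of the CCl4 group stood apart, with 12714 probe sets called present against 15550 to 16849 on the other 8 arrays. Its median over all probe sets was 7.81 against 6.79 to 7.01, whereas its median over the 1811 probe sets that were present on all arrays and at least as bright as the dimmest enzyme was 12.11 against 12.39 to 12.47. The 3′ minus 5′ signal of hexokinase, a control for RNA integrity, was 0.93 on that array and 1.60 on array 6 of the CCl4+Rot group, and 2.37 to 3.82 on the others. Gapdh and Actb, the other controls of this kind, were at 0.003 and 1.34 on array 3 of the CCl4 group and 0.37 and 1.45 on array 6 of the CCl4+Rot group, against -0.14 to 0.05 and 1.06 to 1.44 on the others. The part of these properties in the results below was not tested. The 8 measured hepatocyte markers, among them Alb and Ttr, were called present on all 9 arrays.

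The tyrosine pathway begins with Tat, the aminotransferase that removes the amino group of tyrosine. Its log2 signal was 13.31, 13.54 and 13.01 in the vehicle livers, 13.16, 13.19 and 11.22 in the CCl4 livers and 12.59, 12.94 and 12.71 in the CCl4+Rot livers. In the CCl4 group 2 livers lay within the vehicle range and the remaining liver, on array 3, lay far below it, whereas all CCl4+Rot livers lay below the vehicle range. Hpd, the dioxygenase that makes homogentisate, had signals of 14.82, 14.92 and 14.83 with vehicle, 14.97, 14.69 and 14.11 with CCl4 and 14.76, 14.74 and 14.44 with CCl4+Rot. The CCl4 livers held both the highest and the lowest Hpd signal, and the CCl4+Rot livers were below the vehicle range, by a small margin in 2 of them. Hgd, which opens the ring of homogentisate, had signals of 13.02, 12.54 and 12.97 with vehicle, 12.91, 13.13 and 12.52 with CCl4 and 13.16, 13.04 and 12.91 with CCl4+Rot, so that all groups overlapped. Fah, the hydrolase of the last step, had signals of 13.79, 13.77 and 13.87 with vehicle, 13.54, 13.51 and 13.15 with CCl4 and 13.73, 13.60 and 13.43 with CCl4+Rot. Every liver given CCl4, with or without rottlerin, lay below the vehicle livers for Fah, and the CCl4 and CCl4+Rot livers overlapped.

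The other enzymes each act on a different substrate. Hal, the ammonia-lyase that starts histidine breakdown, had signals of 12.44, 12.46 and 11.85 in vehicle livers, 11.74, 10.61 and 10.77 in CCl4 livers and 11.21, 11.25 and 10.12 in CCl4+Rot livers. All 6 livers given CCl4 were below the vehicle range, the nearest by a small margin. Tdo2, which opens the ring of tryptophan at the head of the kynurenine pathway, measured 14.89, 15.10 and 15.11 with vehicle, 14.83, 14.76 and 14.36 with CCl4 and 14.95, 14.98 and 14.47 with CCl4+Rot. The CCl4 livers were below the vehicle livers for Tdo2, and 2 of the CCl4+Rot livers were within the vehicle range. Aass, the bifunctional enzyme that starts lysine breakdown through saccharopine, measured 13.64, 13.37 and 13.74 with vehicle, 13.27, 12.75 and 12.63 with CCl4 and 13.52, 13.45 and 12.57 with CCl4+Rot. As for Tdo2, the CCl4 livers lay below the vehicle range and 2 of the CCl4+Rot livers within it. Sds, which turns serine into pyruvate and ammonia, measured 13.66, 13.61 and 13.61 with vehicle, 12.17, 12.48 and 10.26 with CCl4 and 13.40, 13.50 and 11.68 with CCl4+Rot. The vehicle livers were nearly alike for Sds, the CCl4 livers were all lower, and 2 of the CCl4+Rot livers came close to the vehicle livers while the remaining liver lay among those given CCl4 alone. Agxt, which turns glyoxylate into glycine, measured 11.88, 11.27 and 11.41 with vehicle, 11.73, 11.29 and 11.38 with CCl4 and 11.34, 11.23 and 10.89 with CCl4+Rot, with overlap between all groups.

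**Figure D1:**
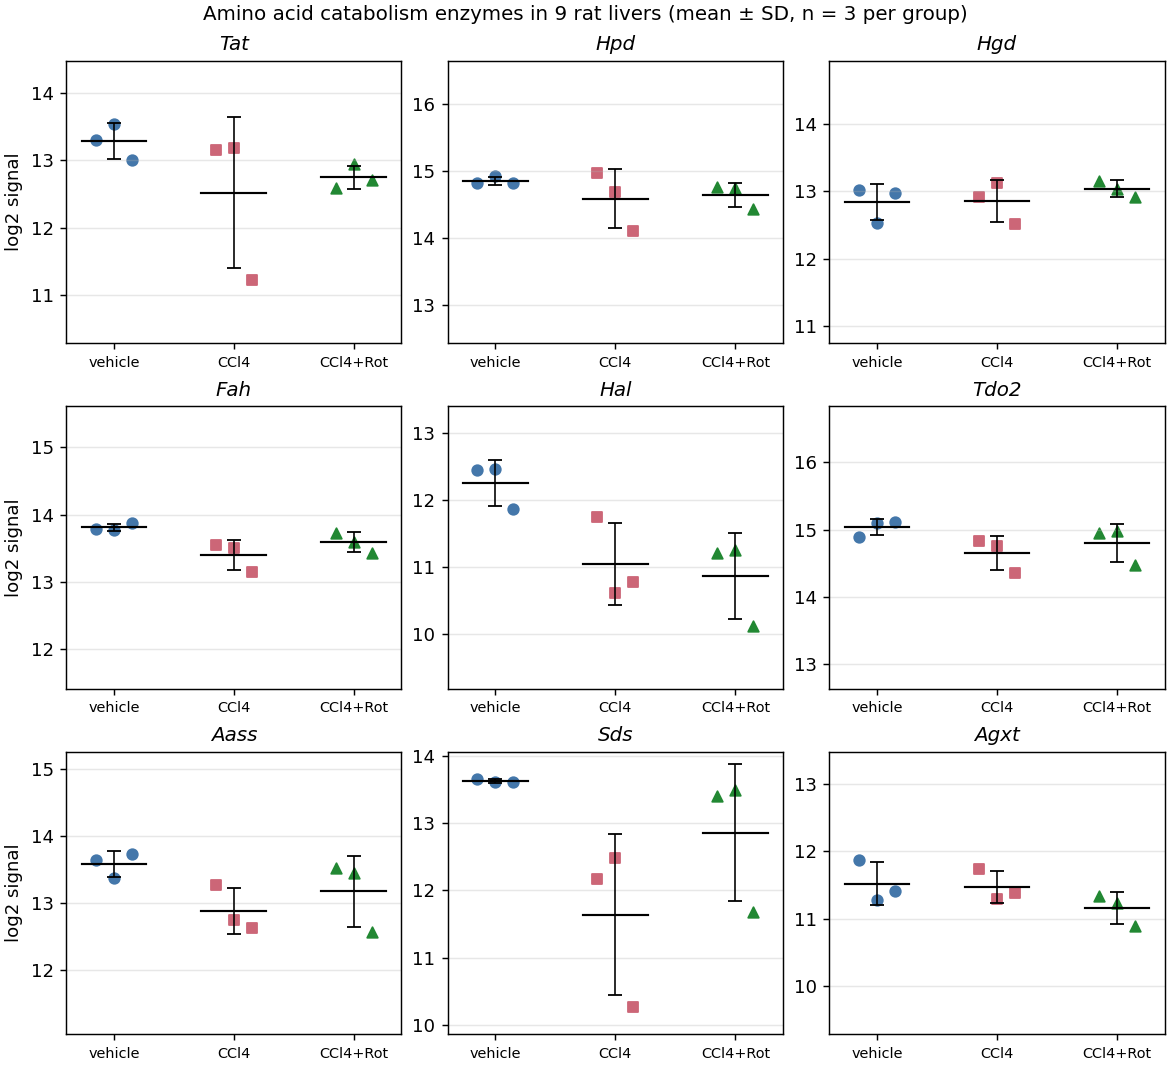
Log2 signal of each enzyme in each of the 9 livers, with 1 panel per enzyme, points for rats and bars for the group mean ± SD (n = 3). Sds shows the widest gap between vehicle and CCl4, at means of 13.63 and 11.64, and Hgd shows none, at 12.84 and 12.85.

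With CCl4, 8 of the 9 enzymes had a lower mean than with vehicle, against 36.8% of all probe sets and 51.3% of the 11231 that were detected on every array. In Hal, Sds, Aass, Fah and Tdo2 the 3 CCl4 livers were all below the 3 vehicle livers, that is in 5 of 9 enzymes, against 7.14% of all probe sets tested and 14.2% of those detected on every array. Leaving out an array cannot bring separate groups into overlap, so these 5 had to stay apart without array 3 of the CCl4 group. The share of all probe sets was then 14.8%. The difference of the Sds means was -1.99 (SE 0.676, 95% interval -3.56 to -0.41), 3.96-fold lower, with an unadjusted p of 0.020 and an adjusted p of 0.322 by limma. Without array 3 of the CCl4 group the difference was -1.30. For Hal the difference was -1.21 (SE 0.421, interval -2.19 to -0.23), 2.32-fold lower, with an adjusted p of 0.331. Aass differed by -0.70 (SE 0.305, interval -1.41 to 0.01, adjusted p 0.409), Fah by -0.41 (SE 0.174, interval -0.82 to -0.01, adjusted p 0.397) and Tdo2 by -0.39 (SE 0.214, interval -0.89 to 0.11, adjusted p 0.497). In bulk liver, fewer hepatocytes and less transcript per hepatocyte cannot be told apart.

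The Tat means differed by -0.77 (SE 0.509, interval -1.95 to 0.42, adjusted p 0.562), but the difference was -0.11 without array 3 of the CCl4 group. Hpd, Agxt and Hgd differed by -0.27 (interval -0.83 to 0.29), -0.05 (interval -0.60 to 0.49) and 0.01 (interval -0.51 to 0.53), so that differences of the size seen for Sds lie outside their intervals. Without array 3 of the CCl4 group these were -0.03, -0.01 and 0.18, and Tdo2 was at -0.24. A gene was called where limma gave a p below 0.05 after Benjamini-Hochberg adjustment together with a 1.5-fold or larger change, and by this rule no enzyme and 0% of all probe sets were called. At an unadjusted p below 0.05, Fah, Hal and Sds were lower, against 3.72% of all probe sets. Without array 3 of the CCl4 group 1 enzyme passed, and the share of all probe sets is not given for that fit. A limma fit with a robust spread that follows the signal called 1.12% of all probe sets and 0 of the enzymes, with a lowest adjusted p of 0.14 among them. The median difference over the enzymes was -0.41, beside 0.18 over all probe sets and -0.01 over those present on all arrays. Without array 3 of the CCl4 group it was -0.24, beside 0.013 over all probe sets, of which 48.8% then had a lower mean. The count of 8 lower enzymes became 7 with quantile normalization, where Agxt was at 0.05, and 9 when each array was centred on its median, where Hgd was at -0.34.

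**Figure D2:**
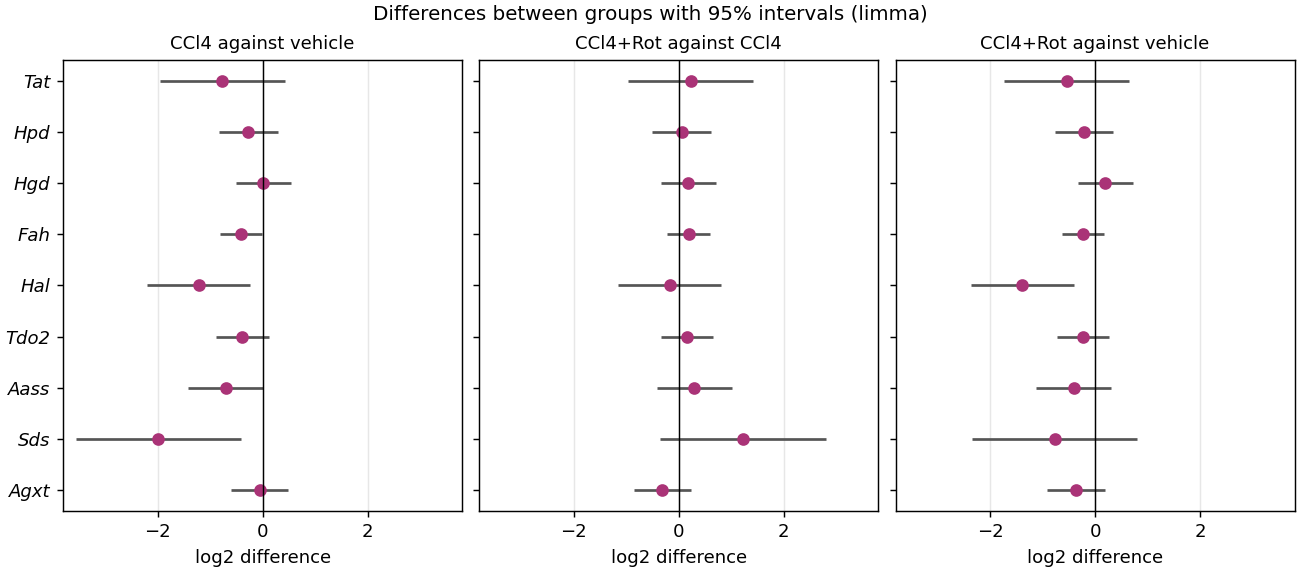
Log2 difference between group means of each enzyme in the 3 comparisons, with 95% intervals from the limma fit over all 9 arrays (n = 3 rats per group). With CCl4 against vehicle the points run from -1.99 for Sds to 0.01 for Hgd, and only the intervals of Fah, Hal and Sds exclude 0. Every interval of CCl4+Rot against CCl4 spans 0.

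The promoters of Fah, Tdo2 and Aass, the enzymes among these 5 whose promoter sequence was to hand, are shown because each was lower in every CCl4 liver than in every vehicle liver. Each run holds the 250 bases before the transcription start in RefSeq (assembly GRCr8), read 5′ to 3′ on the coding strand, and is on the minus strand, at chr1:147980606-147980855 for Fah, chr2:169585587-169585836 for Tdo2 and chr4:52628812-52629061 for Aass. Capitals mark matches, on either strand, to any of 6 short motifs. The TATA box was searched as TATAAA, and the box bound by the nuclear factor NF-Y as CCAAT. Sites of the liver-enriched C/EBP factors were searched as TTGCNNAA, and part of the site of HNF1, another liver-enriched factor, as GTTAAT. Part of the cyclic AMP response element was searched as TGACG, and part of the glucocorticoid response element as TGTTCT. No matches overlap in the sequences shown.
Fah: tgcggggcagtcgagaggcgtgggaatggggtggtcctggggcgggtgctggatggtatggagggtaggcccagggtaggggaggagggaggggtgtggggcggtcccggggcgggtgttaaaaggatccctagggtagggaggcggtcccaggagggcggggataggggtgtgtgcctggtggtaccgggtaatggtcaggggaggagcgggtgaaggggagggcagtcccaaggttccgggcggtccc
Tdo2: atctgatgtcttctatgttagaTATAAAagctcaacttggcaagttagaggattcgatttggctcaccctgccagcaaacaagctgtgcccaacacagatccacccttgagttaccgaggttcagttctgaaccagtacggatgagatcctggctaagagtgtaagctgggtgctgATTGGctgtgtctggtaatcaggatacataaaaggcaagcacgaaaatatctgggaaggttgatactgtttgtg
Aass: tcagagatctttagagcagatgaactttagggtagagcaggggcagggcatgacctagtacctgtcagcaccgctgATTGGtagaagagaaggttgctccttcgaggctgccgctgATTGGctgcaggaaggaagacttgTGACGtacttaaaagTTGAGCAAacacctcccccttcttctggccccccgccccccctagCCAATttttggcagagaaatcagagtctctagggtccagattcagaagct
The Fah promoter held none of these letter runs, Tdo2 held TATAAA and CCAAT, and Aass held CCAAT, TTGCNNAA and TGACG. The TATAAA of Tdo2 began 228 bases before the transcription start and is given as a run of letters, not as a working TATA box. Of the 7 enzymes with a RefSeq promoter, CCAAT was present in 5 (Tat, Hgd, Tdo2, Aass and Agxt), against 34% of 33469 rat promoters of the same length. TTGCNNAA was present in 2 (Hgd and Aass), against 9.22%, and each of the others was in 1: TATAAA in Tdo2 (12.9% of promoters), GTTAAT in Hpd (6.45%), TGACG in Aass (18.2%) and TGTTCT in Agxt (17.5%). Agxt has a pair of promoter windows, of which 1 held CCAAT and the other TGTTCT, and it was counted for a motif found in either, whereas the shares are per promoter. A match describes the letters in this window only.

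When rottlerin had been added to CCl4, 7 of the 9 enzymes had a higher mean than with CCl4 alone, against 39% of all probe sets and 53.8% of those detected on every array, and Hal and Agxt had a lower one. In none did the groups separate, against 4.73% of probe sets that separated with CCl4+Rot higher and 6.88% with it lower. Sds showed the widest difference, 1.22 higher (SE 0.676, 95% interval -0.35 to 2.79) or 2.33-fold, with an unadjusted p of 0.111 and an adjusted p of 0.765. It rested on single livers, since it was 0.53 without array 3 of the CCl4 group and 1.81 without array 6 of the CCl4+Rot group. The other differences were 0.29 for Aass (interval -0.42 to 1.01), 0.23 for Tat (interval -0.96 to 1.41), 0.19 for Fah (interval -0.22 to 0.59), 0.18 for Hgd (interval -0.34 to 0.70), 0.15 for Tdo2 (interval -0.35 to 0.65) and 0.06 for Hpd (interval -0.50 to 0.62). Hal was at -0.18 (interval -1.16 to 0.80) and Agxt at -0.31 (interval -0.86 to 0.23).

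No enzyme passed limma in this comparison, in which 0.00322% of probe sets were called. None was called by the robust fit, and none had an unadjusted p below 0.05, against 1.97% of probe sets that were higher and 4.65% that were lower. The median difference over the enzymes was 0.18, beside -0.12 over all probe sets and 0.02 over those present on all arrays. Without array 3 of the CCl4 group that median was 0.0053, with 5 enzymes higher and 4 lower. Over all probe sets the median was then 0.012, and 48.7% had a lower mean. Tat was then at -0.42 and the groups separated for it alone, against 10.8% of all probe sets that separated downwards, while Hpd was at -0.18, Fah at 0.063, Hgd at 0.015, Tdo2 at 0.0053 and Aass at 0.17. Without array 6 of the CCl4+Rot group Aass was at 0.60, Tdo2 at 0.32, Hpd at 0.16, Hal at 0.19 and Agxt at -0.18, and 8 enzymes were higher. The groups then separated upwards for Sds, Fah, Tdo2 and Aass, against 7.62% of all probe sets. The count of 7 higher enzymes became 6 with quantile normalization, where Hpd was at -0.09, and 8 with each array centred on its median, where Hal was at 0.07.

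CCl4+Rot livers were also set against vehicle livers, which uses the same vehicle arrays as the comparison with CCl4 and the same CCl4+Rot arrays as the preceding one. The mean was lower in 8 of 9 enzymes, Hgd being at 0.20, against 48.9% of all probe sets and 50.9% of those detected on every array. The groups did not overlap for Tat, Hpd, Fah, Hal and Sds, that is 5 of 9 enzymes against 9.15% of all probe sets and 14.2% of those present on all arrays. With quantile normalization 3 of them (Tat, Hal and Sds) remained apart, against 11.2% of all probe sets, and with each array centred on its median 8 enzymes did, against 14.9%. Hal differed by -1.39 (SE 0.421, 95% interval -2.37 to -0.41), 2.62-fold lower, with an unadjusted p of 0.012 and an adjusted p of 0.395. Sds differed by -0.77 (interval -2.34 to 0.81, adjusted p 0.877), and by -0.18 without array 6 of the CCl4+Rot group. The values of the others were -0.54 for Tat, -0.41 for Aass, -0.36 for Agxt, -0.23 for Tdo2, -0.22 for Fah and -0.21 for Hpd. Without array 6 of the CCl4+Rot group Hal was at -1.02, Aass at -0.10, Agxt at -0.23, Tdo2 at -0.07, Fah at -0.15 and Hpd at -0.11. The median over the 9 enzymes was then -0.15 in place of -0.36. limma called none of the enzymes and 0.0258% of all probe sets. At an unadjusted p below 0.05 only Hal passed, against 2.68% of probe sets that were lower, and the robust fit called 0 enzymes and 0.776% of probe sets.

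The livers within a group were not alike. The mean over the 9 enzymes was 13.38 to 13.49 in vehicle livers, 13.15, 12.93 and 12.27 in CCl4 livers, and 13.19, 13.19 and 12.58 in CCl4+Rot livers. Array 3 of the CCl4 group was lowest of all arrays for 6 enzymes, and array 6 of the CCl4+Rot group for the other 3. Against the mean of the other CCl4 livers, array 3 differed by -2.06 for Sds, -1.95 for Tat and -0.72 for Hpd, while the 1811 bright probe sets had a median of -0.32. Against the other CCl4+Rot livers, array 6 differed by -1.77 for Sds, -1.11 for Hal, -0.91 for Aass and -0.49 for Tdo2, while the median of the bright probe sets was -0.01. Tat was at -0.05 there, so Sds was low on both arrays, whereas Tat was low on the CCl4 array alone.

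**Figure D3:**
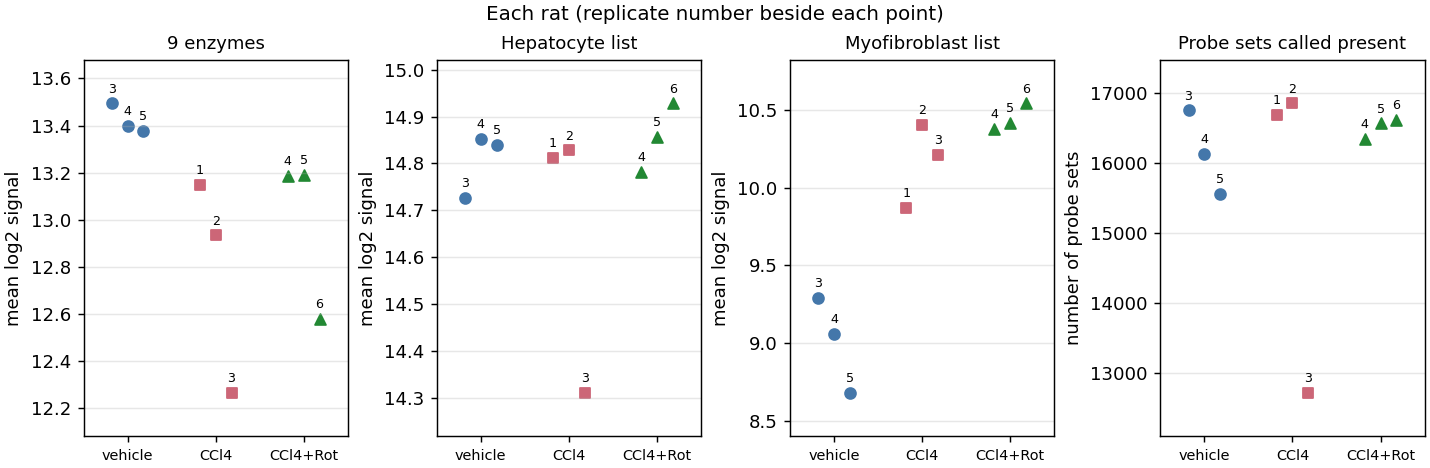
The 4 panels give, for each of the 9 livers, the mean log2 signal of the 9 enzymes, of the hepatocyte markers and of the myofibroblast markers, and the number of probe sets called present. Array 3 of the CCl4 group is lowest in the enzymes (12.27), the hepatocyte markers (14.31) and present calls (12714), whereas array 6 of the CCl4+Rot group is low in the enzymes (12.58) and not in the hepatocyte markers (14.93).

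Markers of the cell types of the liver were read on the same arrays. The mean of the 8 hepatocyte markers was 14.73 to 14.85 with vehicle, 14.31 to 14.83 with CCl4 and 14.78 to 14.93 with CCl4+Rot. The 8 myofibroblast markers averaged 8.68 to 9.29, 9.87 to 10.41 and 10.38 to 10.54, and all 8 were higher with CCl4 than with vehicle, by a median of 1.07. The 7 macrophage markers averaged 10.34 to 10.84, 10.78 to 11.14 and 11.10 to 11.40. With CCl4 against vehicle 5 of the macrophage markers were higher and 2 lower, Clec4f at -0.45 and Cd163 at -0.02. The 5 cholangiocyte markers averaged 6.12 to 6.40, 7.17 to 7.88 and 6.56 to 7.12. Of these 5, 2 were present on all arrays and 1 on none. With CCl4 against vehicle, 4 were higher and 1 lower, at a median of 0.48. Spp1 alone differed by 5.00 there, was present on 0 vehicle arrays, and was at -2.09 with CCl4+Rot against CCl4. Among hepatocyte genes, the 8 of the periportal zone averaged 12.37 to 12.40 with vehicle, 11.94 to 12.12 with CCl4 and 11.97 to 12.23 with CCl4+Rot, and the 8 pericentral genes 10.39 to 10.91, 10.34 to 10.56 and 10.54 to 10.95. Only 6 of the 8 pericentral genes were present on all arrays, and Slc1a2 and Lgr5 were present on no array of the CCl4 group. With CCl4 against vehicle 7 of 8 periportal genes were lower (median over the list -0.37), 5 of 8 pericentral genes (-0.34) and 7 of the 8 hepatocyte markers (-0.15). The hepatocyte mean was 14.81 and 14.83 on arrays 1 and 2 of the CCl4 group, within the vehicle range, and 14.31 on array 3. Of 16 regulators and hormone-responsive genes, including those of glucocorticoid and glucagon action, 12 were lower with CCl4 than with vehicle, at a median of -0.29, and none was called. Only 11 of the 16 were present on all arrays, and 2 were present on none. In this comparison 36.8% of all probe sets had a lower mean, and 51.3% of those present on all arrays. The part of these lists in the enzyme values was not tested.

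The 9 enzymes belong to a wider list of 71 genes of amino acid breakdown, of which 67 had a probe set of their own and 63 were present on all arrays. With CCl4, 52 of the 67 had a lower mean than with vehicle, 48 with quantile normalization and 63 with arrays centred on their median. Of all probe sets 36.8% had a lower mean, and 51.3% of those present on all arrays. The groups separated downwards in 33 and upwards in 3 (7.14% and 11.1% of all probe sets), and the median difference was -0.34. Of the probe sets present on all arrays, 14.2% separated downwards. limma called 0 genes, with 20 lower and 1 higher at an unadjusted p below 0.05 (3.72% and 8.64% of all probe sets). The robust fit called 3, all lower, against 1.12% of all probe sets called and 0.428% called lower. Without array 3 of the CCl4 group 50 had a lower mean, against 48.8% of all probe sets, and the median was -0.22, beside 0.013. By limma 12 were then lower and 2 higher at an unadjusted p below 0.05. The share of all probe sets at that p is not given for the fit without array 3. By substrate, the mean was lower in all 3 measured genes of histidine breakdown (median -0.98), all 5 of lysine (-0.39), all 7 of proline, glutamate, alanine and aspartate (-0.83) and 7 of 9 of methionine, cysteine and choline (-0.62). It was lower in 6 of 8 for phenylalanine and tyrosine (-0.39), 5 of 7 for tryptophan (-0.33), 8 of 12 for serine, threonine, glycine and glyoxylate (-0.19) and 11 of 16 for branched-chain amino acids (-0.21).

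Histidine breakdown was read by 3 of its 4 listed genes. Amdhd1, listed between Uroc1 and Ftcd, had no probe set of its own. Uroc1, the hydratase that acts on the product of Hal, measured 13.21, 13.42 and 13.47 with vehicle, 12.44, 12.37 and 12.36 with CCl4 and 12.91, 12.73 and 12.21 with CCl4+Rot. Its CCl4 livers were close together and all below the vehicle livers, as were the CCl4+Rot livers. The difference from vehicle was -0.98 with CCl4 (SE 0.210, adjusted p 0.218 by limma and 0.018 by the robust fit) and -0.75 with CCl4+Rot (adjusted p 0.360). Ftcd, which passes the one-carbon unit of histidine to folate and was named after its values were seen, measured 13.64, 13.65 and 13.73 with vehicle, 13.10, 13.23 and 12.82 with CCl4 and 13.37, 13.17 and 12.99 with CCl4+Rot. It too was below the vehicle range in every liver given CCl4, by a difference of -0.62 with CCl4 (adjusted p 0.269) and -0.49 with CCl4+Rot (adjusted p 0.500).

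The smallest p of the wider list belonged to Dmgdh, a mitochondrial dehydrogenase of choline breakdown, with 12.50, 12.60 and 12.69 with vehicle, 11.71, 11.71 and 11.33 with CCl4 and 11.75, 11.87 and 11.78 with CCl4+Rot. Its vehicle livers stood above all others, with differences of -1.02 for CCl4 (SE 0.168, adjusted p 0.178 by limma and 0.00746 by the robust fit) and -0.80 for CCl4+Rot (adjusted p 0.219 and 0.0162). Gcdh, the glutaryl-CoA dehydrogenase of lysine and tryptophan breakdown, measured 12.96, 13.20 and 13.27 with vehicle, 12.59, 12.50 and 12.38 with CCl4 and 12.89, 12.61 and 12.52 with CCl4+Rot. The CCl4 livers differed from vehicle by -0.65 (SE 0.176, adjusted p 0.252 by limma and 0.044 by the robust fit), with no overlap. When array 3 of the CCl4 group was left out, the robust fit called Uroc1 and Dmgdh and no longer Gcdh. The number of all probe sets called in that fit is given in the last section.

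With rottlerin added, 48 of the 67 genes had a higher mean than with CCl4 alone (47 with quantile normalization, 61 with arrays centred on their median), at a median of 0.15. Of all probe sets 39% had a higher mean, and 53.8% of those present on all arrays. The groups separated upwards in 2 and downwards in none (4.73% and 6.88% of all probe sets). Without array 3 of the CCl4 group 36 were higher and 31 lower, with a median of 0.015, and 4 separated upwards and 4 downwards (12% and 10.8% of all probe sets). Over all probe sets the median was then 0.012, and 48.7% had a lower mean. Without array 6 of the CCl4+Rot group 54 were higher and 13 lower, with a median of 0.22, and 23 separated upwards and 1 downwards (7.62% and 10.7%). On all 9 arrays limma called 0 of them, 0 had an unadjusted p below 0.05 and the robust fit called 0. The smallest p values belonged to Sardh, the dehydrogenase of sarcosine, Aldh4a1, a dehydrogenase of proline breakdown, and Sds. Sardh was 10.63, 11.13 and 10.45 with CCl4 and 11.38, 11.30 and 11.03 with CCl4+Rot, a difference of 0.50 (SE 0.217, adjusted p 0.750) with overlap. Aldh4a1 was 12.58, 12.90 and 12.53 with CCl4 and 13.12, 13.03 and 12.94 with CCl4+Rot, a difference of 0.36 (SE 0.163, adjusted p 0.752) without overlap. Against vehicle, 48 of 67 genes were lower with CCl4+Rot, at a median of -0.22 (-0.13 without array 6 of the CCl4+Rot group). Of all probe sets 48.9% were lower, and 50.9% of those present on all arrays. The groups separated downwards in 25 and upwards in 4 (9.15% and 11.9% of all probe sets). Of the probe sets present on all arrays, 14.2% separated downwards. limma called 0, with 10 lower genes at an unadjusted p below 0.05 (2.68% of all probe sets), and the robust fit called 1, Dmgdh (0.776%).

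**Figure D4:**
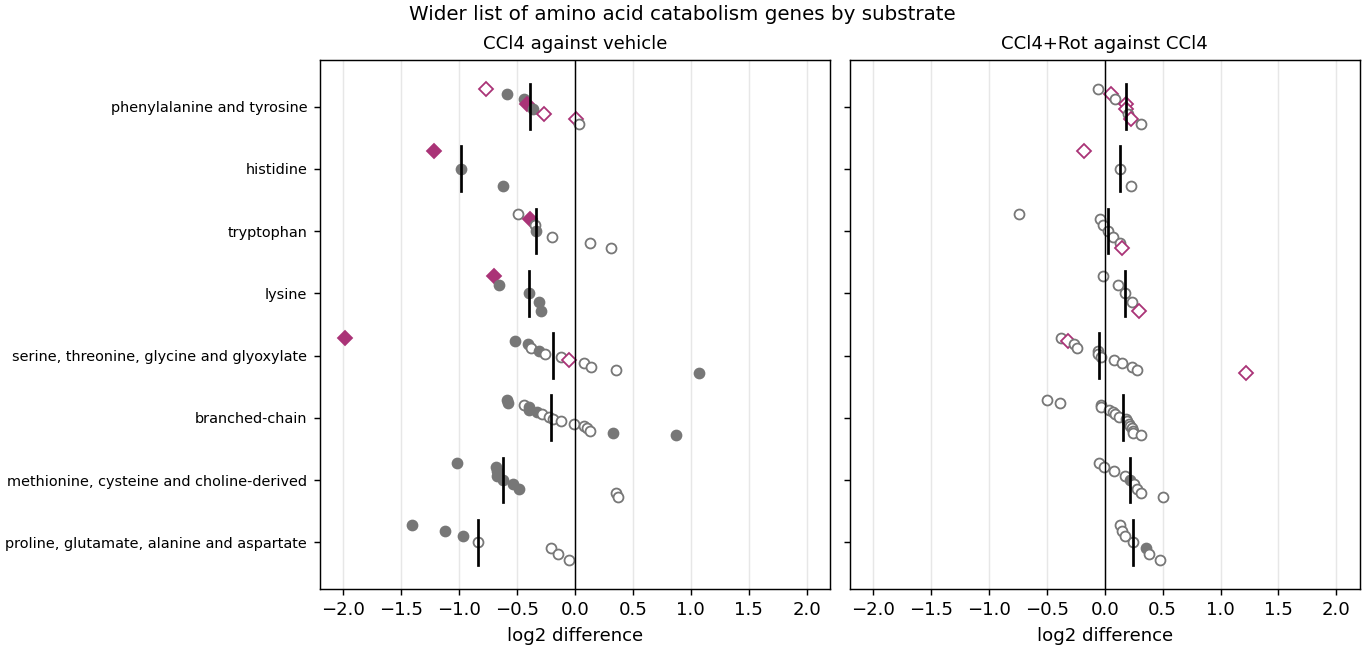
Log2 differences of the 67 measured genes of amino acid breakdown by substrate, for CCl4 against vehicle and CCl4+Rot against CCl4, with diamonds for the 9 enzymes and circles for other genes. Filled points mark groups that do not overlap, and the black bar is the median of each substrate, which with CCl4 runs from -0.98 for histidine to -0.19 for serine, threonine, glycine and glyoxylate.

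Outside the lists, the genes whose pattern across the 9 arrays was most like the mean of the 9 standardised enzymes were Pxmp2 (Pearson r 0.974), Timm10 (0.965), Slc38a3 (0.954), Aldh2 (0.948) and Cmbl (0.946), among 6943 genes compared. Slc38a3 is an amino acid transporter of the liver and Aldh2 the mitochondrial aldehyde dehydrogenase. For single enzymes the closest genes were Ppp1r7 for Tat (0.979), Napa for Hpd (0.984), Cfd for Hgd (0.944), Sra1 for Fah (0.976), Ibtk for Hal (0.961), Aldh2 for Tdo2 (0.954), Tmem176a for Aass (0.951), Mtfmt for Sds (0.954) and Paip1 for Agxt (0.926). The points share their arrays, including the arrays that stood apart, and the highest of many correlations over 9 arrays is large by selection.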

How the data were processed

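Total liver RNA of 9 rats was measured, 1 array per rat. Per the labels and file header, the authors deposited log2 signals with detection calls for 31099 probe sets, and the submitters' processing notes name MAS5 and affy, with no role or version given in the sources used here, nor a genome build. Back on the linear scale every array has a 2% trimmed mean of 500, and no normalization was added here. Without its 57 control probe sets, the table gave 31042 for limma 3.58.1 (R 4.3.3, 3 group means, no covariate), with Benjamini-Hochberg adjustment over all of them, and a call needed an adjusted p below 0.05 and the 1.5-fold change of the methods. With 3 arrays against 3, the smallest two-sided exact permutation p is 0.1. The brightest probe set by mean stood for a gene. Intervals are 95%. The number of arrays limits the precision.

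The enzymes and lists were chosen with earlier results of these data known. Named are the 9 enzymes, from the wider list the genes called or, per comparison, the 3 with the smallest p, and the genes most like the enzymes (called present on all arrays, 1 probe set per gene). Alternatives were quantile normalization, centring, filters on dim or undetected probe sets, only the groups compared, a robust spread and array weights. Others were a t-test, no fold threshold, another probe set per gene, a replicate block and each array left out. The study names a t-test among its statistics but no test for the arrays. The fits were tested on simulated data. Promoters are from RefSeq (GRCr8), where Hal and Sds were not analysed.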

Additional observations from a re-analysis of the deposited data

How the results depend on the processing

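The median of the 9 enzymes with CCl4 against vehicle was -0.77 with arrays centred on their median (-0.41 as reported). Probe sets called with CCl4 against vehicle numbered 0 as reported, 4 without the dimmest 30%, 78 with those present on at least 3 arrays, 348 with the robust spread and 1774 with the t-test at unadjusted p. For CCl4+Rot against CCl4 the 1 called became 0 with quantile normalization, centring on probe sets present on all arrays, either filter, only the groups compared or the adjusted t-test, and 851 with the unadjusted t-test. For CCl4+Rot against vehicle the 8 became 3 with quantile normalization, 2 with median centring, 22 and 63 with the dim and detection filters, 1 with only the groups compared, 241 with the robust spread, 73 with array weights, and 2126 and 0 with the t-test unadjusted and adjusted. Leaving out each array gave 0 to 0, 0 to 2 and 0 to 24, the upper values without array 2 of the CCl4 group. Chosen after seeing the data, leaving out array 3 of the CCl4 group and array 6 of the CCl4+Rot group gave 0 and 1 for the comparisons of CCl4+Rot with CCl4 and with vehicle, and the robust spread without array 3 gave 313, 11 and 365. Genes of the wider list called with CCl4 numbered 1 with the detection filter (Dmgdh), 3 with the robust spread, 12 with the unadjusted t-test and 2 with the robust spread without array 3. With CCl4+Rot against vehicle they numbered 1, 4 and 2 under the last 3 of these. At unadjusted p the t-test called Aass, Hal and Sds with CCl4, and Hal with CCl4+Rot against vehicle. Signs turned in enzymes near 0. Agxt with CCl4 was 0.052 with quantile normalization and Hgd -0.34 with median centring. Between CCl4+Rot and CCl4, Hal was 0.070 with median centring, 0.11 with array weights and 0.060 without both arrays. Hpd was -0.085 with quantile normalization, -0.035 with array weights, -0.078 without both arrays and -0.18 with the robust spread without array 3. Tat was -0.28, -0.40 and -0.42 under the last 3. Over single arrays left out, Agxt with CCl4 ran from -0.18 to 0.13 and Hgd from -0.14 to 0.18, while between CCl4+Rot and CCl4 Hal ran from -0.39 to 0.19, Hpd from -0.18 to 0.25 and Tat from -0.42 to 0.56. The replicate block gave 0, 1 and 8 calls. The deviations of arrays with the same number correlated at -0.09, -0.01 and -0.01, so the numbers were not taken to pair rats. The causes of these shifts were not tested.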
